A study of Mus musculus with 20 samples.

Results

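Enhancer transcription in macrophages after 15 h with CpG DNA was compared with that in unstimulated macrophages. The comparison used 4 of the 20 libraries of the series, 2 of cells given CpG for 15 h and 2 of cells at 0 h without any stimulus, chosen by their titles. All cells were bone marrow derived macrophages of C57BL/6 mice, differentiated with macrophage colony-stimulating factor, and no transgene or knockout is named. The remaining groups used below were CpG at 3 and 9 h, interferon gamma (IFN-γ) at 15 h, and both agents together at 15 h, with 2 libraries each. The series calls them biological replicates, but the labels do not say whether they came from separate mice or cultures, so that the p-values measure the spread between these libraries. A control kept in culture for 15 h without stimulus is not among the samples, and the effect of CpG and that of time in culture cannot be told apart in the comparison with 0 h. The growth protocol also names IL-4 and IL-10, and whether these cells received them is not stated.

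CpG DNA is a synthetic mimic of bacterial DNA. Its unmethylated CG dinucleotides are sensed in endosomes by Toll-like receptor 9, which signals through the adaptor MyD88 to NF-κB and other factors that bind enhancers of inflammatory genes. Active enhancers are themselves transcribed in both directions into short, unstable, capped RNAs, and the number of capped 5′ ends counted at an enhancer serves as a reading of its activity. The assay was nAnT-iCAGE, an amplification-free form of CAGE (cap analysis of gene expression), in which each tag is 1 sequenced capped end. The treatment protocol names CpG ODN-1826, for a stimulation of 24 h that is not among the times of these samples, so that its use here rests on that protocol alone. It is shown as the CpG DNA that the labels name, with the 2 copies of the hexamer around each CG in capitals, read 5′ to 3′ from the protocol.
CpG ODN-1826: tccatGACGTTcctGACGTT

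The table held 11222 enhancers, named by chromosome, start and end on mm39, and these positions are printed as deposited. The annotation at hand is of an older build, so the genes near the enhancers, their exons and introns, and enhancers near macrophage or other cell type markers were not analysed here. Sequencing gave 12776280 to 13826739 tags for each of the 4 libraries, and enhancers took up 18797 to 22026 of them. The summed enhancer level was 1593 and 1511 RPM (tags scaled to the total tags of the whole library) in the unstimulated libraries and 1554 and 1471 RPM with CpG. These ranges overlap, and the difference of -39.2 RPM was not larger than the spread (two-sided exact permutation test, p = 0.667, where 2 against 2 libraries cannot give less than 0.3333). Each library alone had a tag at 5987 to 6398 enhancers, and 1654 enhancers had none in any of the 4. The numbers of enhancers in use were close: 4522 had a tag in both unstimulated libraries and 4579 in both CpG libraries. Among them, 705 had tags in both CpG libraries and none without stimulus, and 582 had the reverse pattern. These counts rest on single tags and carry no test. In bulk RNA, fewer cells of a type and less RNA per cell cannot be told apart, which holds for each level below.

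Enhancers with enough tags were tested with edgeR, and a minority were called between CpG at 15 h and unstimulated cells, in both directions. Of 2792 tested enhancers, 212 (7.59%) differed between CpG at 15 h and unstimulated cells at a Benjamini-Hochberg adjusted p under 0.05, of which 127 (4.55%) were higher and 85 (3.04%) were lower. The median log2 change over all tested enhancers was 0.06, on a scale that TMM factors centre near 0. Among the called enhancers the median was 3.30 for rises and -2.76 for falls. It was 2.34 and -2.36 when a group without a tag was given a floor of 3 tags. On that scale, which leaves out counting error in the other group, 92 of the 127 rises and 59 of the 85 falls were past 4-fold. The called enhancers were chosen by this comparison, and their sizes are a description. Small changes were mostly missed in the simulation given below. At 4-fold, falls were recovered there less often than rises (8.00% against 44.0%). The share called, the large sizes and the balance of rises and falls thus depend in part on what the test could detect. In all 212 the 2 libraries of a group lay apart from the other 2, which also held for 28.3% of all tested enhancers upward and 21.5% downward.

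Each of the 4 libraries weighed on the number of calls. Without unstimulated replicate 1 or 2, 46 and 60 enhancers were called, and without CpG replicate 1 or 2, 64 and 71, in fits where the single library left is taken to vary like the other groups and where 4115 to 4190 enhancers passed the filter. On the 2792 enhancers of the full filter the same fits called 59 to 95. DESeq2 called 46 (27 higher, 19 lower). Rises were in excess with limma on log2 of RPM plus 0.1 (144 higher, 116 lower), but not with RPM plus 0.5 (148 higher, 162 lower) or plus 2 (131 higher, 176 lower), nor with edgeR without unstimulated replicate 1 (20 higher, 26 lower).

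**Figure D1:**
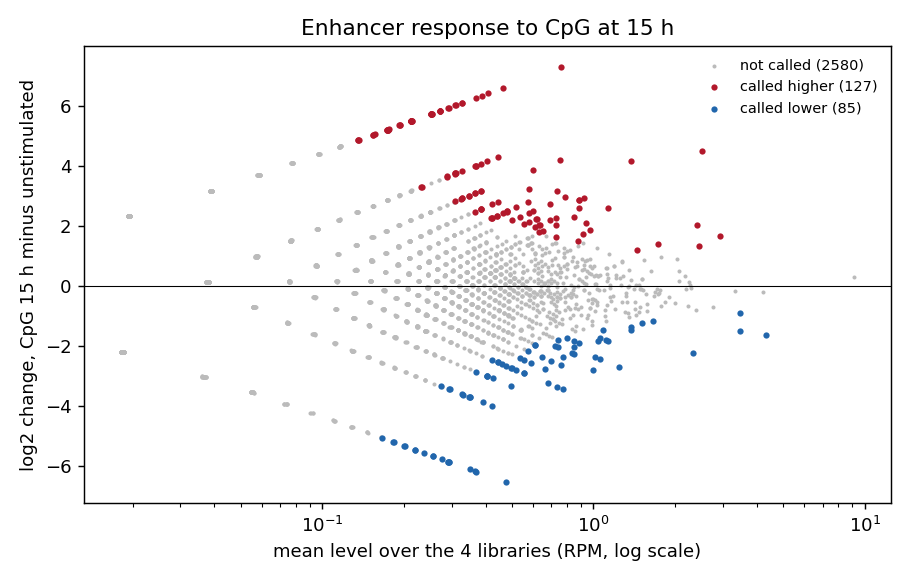
Each point is 1 tested enhancer, with its mean level over the 4 libraries in RPM on a log axis and its edgeR log2 change on the vertical axis. The 127 enhancers called higher (red) and 85 called lower (blue) fan out from the 2580 not called (grey), and 143 without a tag in these 4 libraries are not drawn. The straight rows at the left are enhancers with the same few tags, and the fitted change of those without a tag in a group is no bound.

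Rises mostly started from few or no tags, and falls mostly from enhancers with more tags before stimulation. Unstimulated cells gave no tag at 372 tested enhancers, of which 45 (12.1%) were called higher, and of 900 with 1 to 5 tags over the 2 unstimulated libraries, 53 (5.89%) were. Together these bins hold 98 of the 127 rises. In contrast, 9 of the 36 enhancers with over 50 unstimulated tags were called lower (25.0%) and none higher. Enhancers with 21 to 50 tags had 44 falls and 5 rises among 251. Those with 11 to 20 had 29 falls and 3 rises among 572, and those with 6 to 10 had 3 falls and 21 rises among 661. An enhancer without a tag can only be called higher, and one with few tags cannot be called lower, so that part of this pattern is set by the count itself. The same unstimulated tags enter the bins and the calls, which favours rises at low counts and falls at high ones. Also, 130 enhancers passed the filter only through the CpG libraries, and 9 of these were among the rises.

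The total over the called enhancers is given for the 4 libraries that picked them. The 127 rises held 19.3 and 16.5 RPM in the unstimulated libraries and 117 and 111 RPM with CpG. The 85 falls held 103 and 102 RPM without stimulus and 21.1 and 20.7 RPM with CpG. The choice of these enhancers from the same libraries fixes the direction of both sums and favours their size, so gain and loss were not compared. All tested enhancers together stood at 985 and 938 RPM without stimulus and 951 and 906 RPM with CpG.

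The 10 largest rises by fitted log2 change all went from no tag in either unstimulated library to at least 4 tags in each CpG library. The fitted change is most extreme where a group has no tag, so this ranking favours such enhancers. By the floor of 3 tags over a group without a tag, the 10 rose at least 5.29-fold to at least 13.7-fold. Such a floor allows for counting error in the group without a tag alone, and takes the tags of the other group as exact. Each value given as at least a fold thus holds for the observed tags of the higher group and is no full lower bound. The called rise chr19:11349540-11350041, which had unstimulated tags, showed a ratio of 21.8. First among the 10 was chr19:10822778-10823211, with 16 and 23 tags, or 1.23 and 1.80 RPM, with CpG (edgeR adjusted p = 4.34e-09). The second was chr2:77937049-77937442, with 12 tags in each CpG library, 0.922 and 0.939 RPM (at least 8.46-fold, adjusted p = 2.51e-05). Both kept their call whichever of the 4 libraries was left out, as did chr7:126752700-126752963 (9 and 12 tags, at least 7.40-fold, adjusted p = 1.21e-04) and chr5:65042388-65042734 (12 and 8 tags, at least 7.05-fold, adjusted p = 1.59e-04).

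The other 6 lost their call in a fit with some library left out. They were chr8:111956779-111957113 with 12 and 7 tags, chr4:62200596-62201074 and chr17:18102988-18103257 with 11 and 6 tags each, chr19:32173751-32173942 with 8 in each, chr3:10353642-10354062 with 9 and 7, and chr4:62183758-62184020 with 4 and 11. Without unstimulated replicate 1 all 6 stood at adjusted p = 0.0538 to 0.0872. Without unstimulated replicate 2 the calls at chr17:18102988 and chr19:32173751 were lost (0.0519 to 0.0579), without CpG replicate 1 those at chr8:111956779 and chr17:18102988 (0.0531 to 0.0725), and without CpG replicate 2 that at chr4:62183758 (0.150). The log2 change stayed positive in each of these fits.

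The 10 largest falls were the mirror image, enhancers that no longer gave a tag after 15 h with CpG. By the same floor, with the same limit, they fell at least 4.41-fold to at least 8.20-fold. The first, chr7:19053911-19054276, held 17 and 9 tags, 1.23 and 0.670 RPM, in unstimulated cells and none with CpG (edgeR adjusted p = 1.70e-04). It alone among the 10 kept its call in all fits with a library left out. At chr17:35221557-35221747 the unstimulated libraries held 5 and 15 tags (at least 6.31-fold lower, adjusted p = 6.60e-04), and the call was lost without unstimulated replicate 2 (0.140). At chr11:68337431-68337752 they held 13 and 7 (at least 6.31-fold lower, adjusted p = 0.00145), and the call was lost without unstimulated replicate 1 (0.0716) or CpG replicate 1 (0.0600).

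The rest of these falls began from 14 to 19 tags over both unstimulated libraries. They were chr15:79976905-79977111, chr4:135844398-135844714, chr1:176655010-176655584, chr17:26825460-26825846, chr19:10149238-10149451, chr2:79448585-79448864 and chr1:89508809-89509163, with adjusted p from 0.00242 to 0.0408. Each lost its call in at least 2 fits with a library left out. Among the 10 largest falls, 6 of 9 calls were lost without unstimulated replicate 1, 4 of 9 without replicate 2, and 8 and 7 of 10 without CpG replicate 1 and 2 (adjusted p up to 0.283). In the 2 fits without an unstimulated library 1 of the 10 did not pass the filter.

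**Figure D2:**
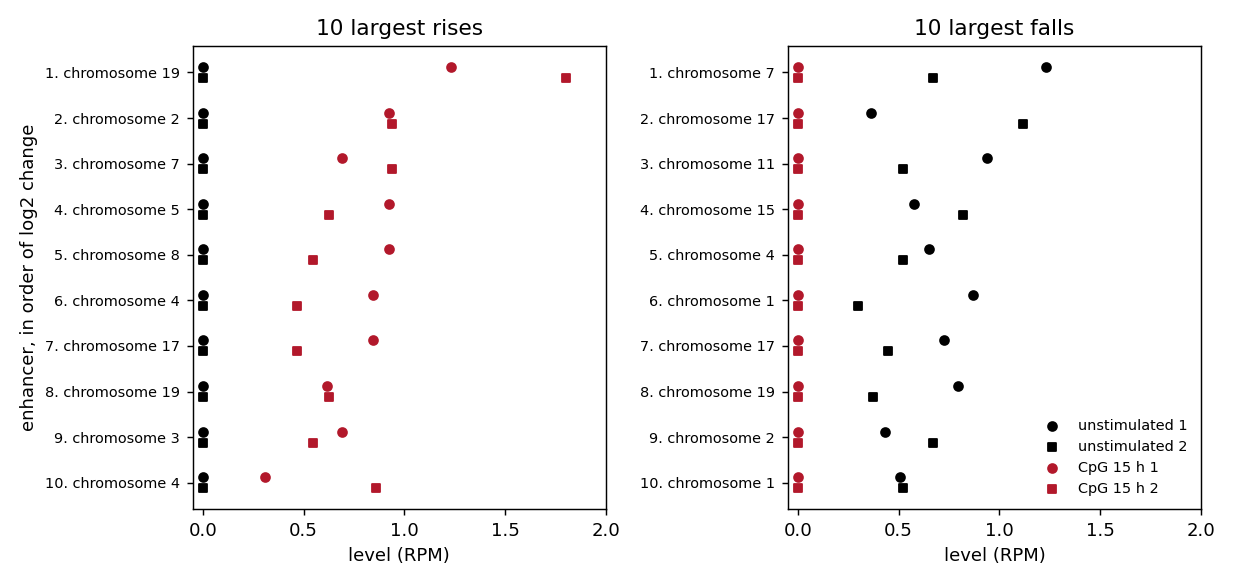
Levels in RPM of the 10 largest rises (left) and 10 largest falls (right), 1 line per enhancer in order of log2 change, with black marks for the 2 unstimulated and red marks for the 2 CpG 15 h libraries. The rises sit at 0 RPM in unstimulated cells and the falls at 0 RPM with CpG.

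Changes at well transcribed enhancers were measured from more tags. The enhancer chr19:11349540-11350041 went from 5 and 1 tags (0.362 and 0.0744 RPM) to 63 and 61 (4.84 and 4.77 RPM), a log2 change of 4.48 ± 0.45 (SE, adjusted p by edgeR = 4.27e-20), the smallest p of the comparison. At chr7:75319181-75319526 the level rose from 1.30 and 0.670 to 4.23 and 3.44 RPM, a log2 change of 2.03 ± 0.35 (adjusted p = 2.98e-06). At chr2:30818921-30819384 it rose from 2.03 and 0.893 to 4.84 and 3.99 RPM, a log2 change of 1.68 ± 0.32 (adjusted p = 2.74e-05). The calls of these 3 rises held with each library left out, but not all sizes did. Without unstimulated replicate 1 or 2 the log2 change of chr19:11349540 was 5.85 and 3.88, and without unstimulated replicate 1 that of chr2:30818921 was 2.31. Of smaller size were chr11:97200213-97200543, from 1.45 and 1.49 to 3.54 and 3.37 RPM (log2 change 1.32 ± 0.34, adjusted p = 0.00444), and chr6:146014641-146015042, from 0.940 and 1.04 to 2.84 and 2.11 RPM (1.40 ± 0.39, adjusted p = 0.0110). The call at chr11:97200213 was lost without CpG replicate 1 (0.0979) or 2 (0.0732) and without unstimulated replicate 1 (0.150). That at chr6:146014641 was lost without any 1 of the 4 libraries (0.0534 to 0.265).

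Falls with the most tags left a part of the signal in place. At chr5:34684166-34684741 the unstimulated libraries held 6.51 and 6.77 RPM and the CpG libraries 2.38 and 1.64 RPM, a log2 change of -1.63 ± 0.29 (edgeR adjusted p = 8.01e-06). At chr8:84928192-84928495 the level went from 5.21 RPM in both unstimulated libraries to 1.54 and 1.96 RPM (-1.48 ± 0.31, adjusted p = 1.65e-04). At chr1:128518463-128519014 it went from 3.47 and 4.32 to 1.23 and 0.313 RPM (-2.23 ± 0.38, adjusted p = 2.98e-06), with 16 and 4 tags in the CpG libraries. The calls of these 3 falls held with each library left out, while the log2 change of chr1:128518463 was -3.56 without CpG replicate 1 and -1.66 without CpG replicate 2. The falls of chr5:114083055-114083713 (4.99 and 4.24 to 2.08 and 2.58 RPM, adjusted p = 0.0375) and chr4:141153374-141153582 (2.17 and 2.53 to 0.922 and 1.02 RPM, adjusted p = 0.0402) each lost their call without any 1 of the 4 libraries (0.0907 to 0.352). DESeq2 did not call these 2 either (0.148 and 0.128), nor chr6:146014641 (0.0936).

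Levels at 3 and 9 h were read at the same enhancers. The 127 enhancers called higher at 15 h held 49.1 and 56.5 RPM in sum after 3 h and 103 and 96.2 after 9 h, between 19.3 and 16.5 in unstimulated cells and 117 and 111 at the end. The 85 falls held 43.8 and 48.9 RPM after 3 h and 36.8 and 33.9 after 9 h, between 103 and 102 at the start and 21.1 and 20.7 at the end. The enhancers were picked from the libraries at the start and at 15 h, so that these values are favoured on both ends and the sums at 3 and 9 h can lie between them without any course in time.

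Levels of single enhancers are given as means of 2 libraries. Of those in this paragraph, only chr19:11349540-11350041 passed the direct test of 15 h against 3 h given below. At chr19:11349540-11350041 the level was 0.490 ± 0.153 RPM (SD, n = 2) at 3 h, 3.20 ± 0.518 at 9 h and 4.81 ± 0.0477 at 15 h, a late rise. At chr7:75319181-75319526 it was 2.34 ± 0.357, 2.94 ± 0.0596 and 3.84 ± 0.554 RPM. At chr6:146014641-146015042 it was 0.793 ± 0.0410 at 3 h, close to 0.991 ± 0.0720 in unstimulated cells, and 2.60 ± 0.532 at 9 h. The difference between 15 h and 3 h did not pass at chr7:75319181 or chr6:146014641 (edgeR adjusted p = 0.51 and 0.062). Among the falls, chr5:34684166-34684741 stood at 2.56 ± 0.387 RPM at 3 h and 2.01 ± 0.522 at 15 h, and chr1:128518463-128519014 at 0.679 ± 0.0962 and 0.771 ± 0.648, with no further drop after 3 h beyond the spread. The fall chr4:141153374-141153582 stood at 1.74 ± 0.241, 1.60 ± 0.582 and 0.970 ± 0.0673 RPM at 3, 9 and 15 h. Its difference between 15 h and 3 h did not pass either (log2 difference -1.03 ± 0.41 SE, edgeR adjusted p = 0.25).

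**Figure D3:**
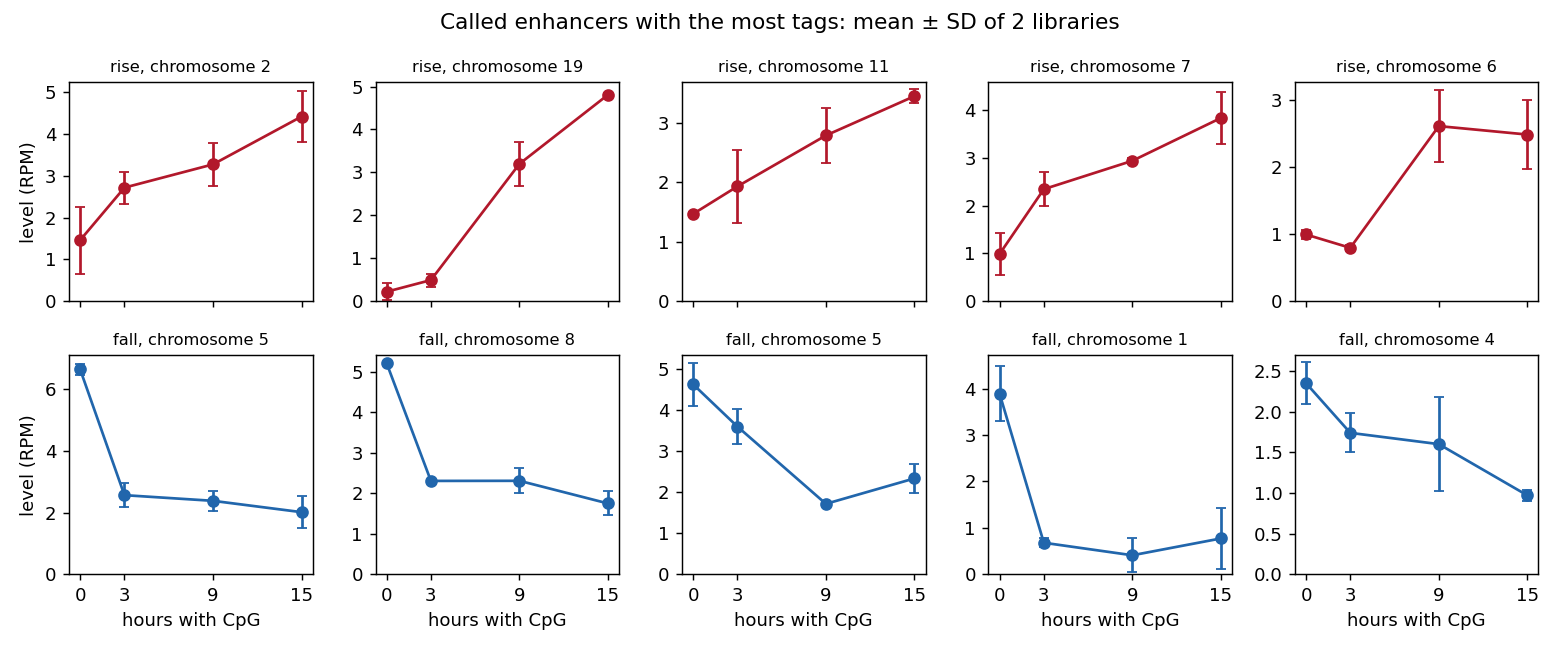
Level in RPM (mean ± SD of 2 libraries) against hours with CpG, where 0 is unstimulated, for the 5 rises (top) and 5 falls (bottom) with the most tags. The rise on chromosome 19 comes after 3 h, and the falls on chromosomes 5 (left), 8 and 1 show most of their drop by 3 h. The sum over the locus that holds the chromosome 8 enhancer fell on after 3 h, as given below.

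The difference between 15 h and 3 h of CpG was tested directly, and few single enhancers passed. There were 18 (0.645% of those tested), 8 higher at 15 h and 10 lower. Only 1 was called by DESeq2, and 2 to 4 were called with any 1 of the 4 libraries left out (2 and 3 without CpG 3 h replicate 1 and 2, 4 and 3 without CpG 15 h replicate 1 and 2). The rise of chr19:11349540-11350041 was among them, with a log2 difference of 3.07 ± 0.39 (SE, adjusted p by edgeR = 1.3e-11). So were chr9:7871545-7872319, which had 0.226 ± 0.103 RPM at 3 h and 1.55 ± 0.199 at 15 h, and chr3:10087603-10088029, which had 0.226 ± 0.103 and 1.39 ± 0.201. An opposite course was seen at chr17:56268411-56268705, which went from 0.256 ± 0.0467 RPM in unstimulated cells to 2.42 ± 0.144 and 2.45 ± 0.00585 after 3 and 9 h and back to 1.01 ± 0.342. Another of the 18, chr5:142804435-142804856, was at 0.115 ± 0.162 RPM at 3 h and 1.32 ± 0.0927 at 15 h, near its unstimulated level of 1.39 ± 0.0283. The last 4 were chosen after their values were seen.

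Summed over the loci defined below, more of the difference between 3 and 15 h passed: 91 of 1896 loci (4.80%), 38 higher (2.00%) and 53 lower (2.80%) at 15 h. At chr8:84919232-84964446 the level fell on from 6.50 ± 1.17 RPM (SD, n = 2) at 3 h to 4.11 ± 0.0530 at 15 h (log2 difference -0.88 ± 0.20 SE, adjusted p by edgeR = 0.0022). At chr17:26716256-26825846, with 18 enhancers, it fell on from 6.54 ± 0.476 to 3.53 ± 0.758 (-1.11 ± 0.21, adjusted p = 9.1e-05), after 9.89 ± 0.940 in unstimulated cells. Both were chosen after their values were seen. The locus counts of this comparison were not refitted with a library left out or by another method.

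Enhancers lie in clusters, so the response was also read by locus. All 11222 enhancers, tested singly or not, were chained wherever the gap to the next was at most 50 kb, which gave 3866 loci, 1843 of them with a single enhancer and the largest with 30. The tags of a locus were summed per library, which brings in enhancers too weak to be tested alone. Of 1896 loci with enough tags, 288 (15.2%) differed between CpG at 15 h and unstimulated cells by the same edgeR test, 147 higher (7.75%) and 141 lower (7.44%). In 151 of the 288 no single enhancer was called (72 higher, 79 lower), and 19 held no enhancer that had enough tags to be tested. In turn, 180 loci held a called enhancer, and only 137 of these were called as loci. A shorter largest gap gave 270 calls and one of 200 kb gave 239. Without unstimulated replicate 1 or 2, 150 and 151 loci were called, without CpG replicate 1 or 2, 122 and 146, and DESeq2 called 108 (60 higher, 48 lower).

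Within a locus, called enhancers moved together. There were 24 loci with at least 2 called enhancers, of which 13 held rises, 10 held falls and 1 held both. Of 1317 pairs of neighbouring tested enhancers in a locus, 21 were both called, each time in the same direction. Over all 1317 pairs, 60.4% had log2 changes of the same sign and the changes correlated at r = 0.36, a description over pairs that share libraries and, in part, enhancers. The exception was a locus on chromosome 12, where chr12:25238686-25239401 fell from 23 and 16 tags to 4 and 5 and chr12:25258829-25259188 rose from 2 and 3 to 14 and 9.

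The locus with the most calls was on chromosome 4, chr4:62183758-62206227, with 9 enhancers over 22.5 kb. It was chosen after its values were seen, as were the 4 loci on chromosomes 19, 8, 17 and 12 that follow it. In sum it held 9 and 8 tags in unstimulated cells and 40 and 53 with CpG, or 0.651 and 0.595 against 3.07 and 4.15 RPM, a log2 change of 2.51 ± 0.35 (SE, adjusted p by edgeR = 1.38e-10). Of 6 tested enhancers 5 were called higher: the pair with no unstimulated tag named above, chr4:62185308-62185782 (2 and 2 tags to 8 and 13), chr4:62199652-62199926 (1 and 1 to 8 and 10) and chr4:62205680-62206227 (3 and 1 to 7 and 11). The sixth, chr4:62201108-62201550, had 3 and 0 tags without and 2 and 2 with CpG and was not called. The rise was thus spread over both ends of the locus and not held by 1 enhancer. At 3 and 9 h the locus stood at 1.52 ± 0.664 and 2.75 ± 0.0986 RPM.

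A wide locus on chromosome 19, chr19:11306875-11581269, had the smallest p (adjusted p = 2.24e-25, edgeR). Its 19 enhancers held 11 and 5 tags in unstimulated cells and 81 in each CpG library, a log2 change of 3.40 ± 0.31. Most of these tags came from chr19:11349540-11350041, its single called enhancer. Another locus, chr17:18047677-18138296 with 18 enhancers, rose from 12 and 6 to 38 and 38 tags (2.14 ± 0.36, adjusted p = 2.99e-07), and 3 of its 9 tested enhancers were called higher.

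On the side of the falls, chr8:84919232-84964446 went from 193 and 164 tags (14.0 and 12.2 RPM) to 53 in each library (4.07 and 4.15 RPM), a log2 change of -1.67 ± 0.18 (SE, adjusted p by edgeR = 9.70e-17). Of its 8 tested enhancers 3 were called lower. Each of the other 5, such as chr8:84919232-84919610 with 33 and 18 tags against 13 and 9 (adjusted p = 0.109), was also lower in both CpG libraries than in both unstimulated ones but did not pass. After 9 h the locus was at 5.77 ± 0.0389 RPM. At chr12:85393221-85649768, a locus of 28 enhancers, the sum fell from 9.33 and 8.93 to 3.84 and 4.31 RPM (-1.16 ± 0.19, adjusted p = 2.50e-07), and its 3 called falls stood beside 3 tested enhancers with log2 changes between 0.16 and 0.42 that did not pass.

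**Figure D4:**
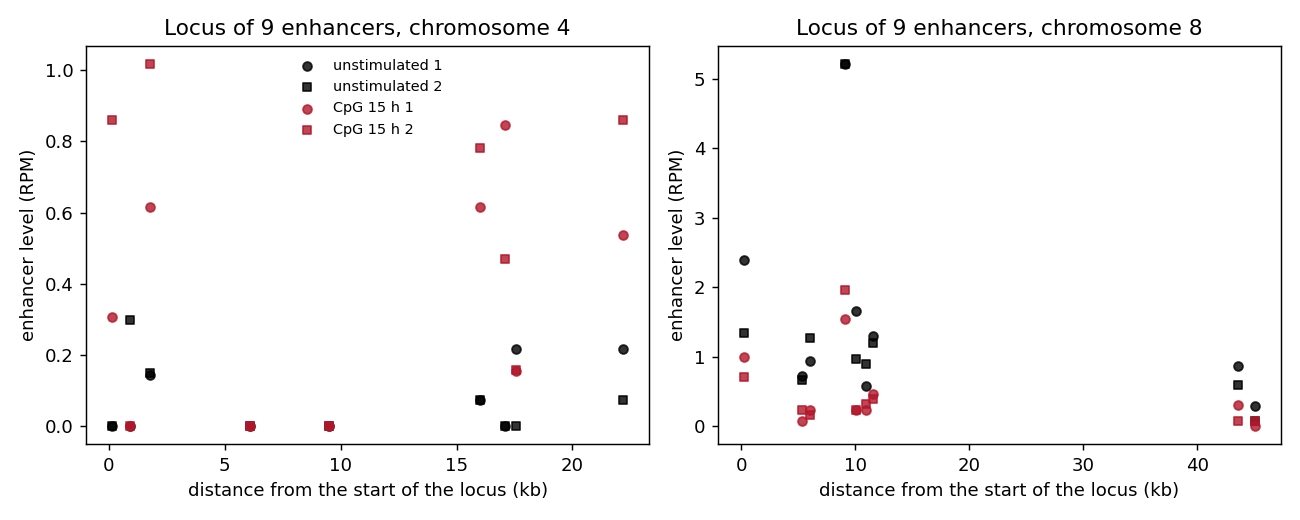
Level of each enhancer in RPM against its distance in kb from the start of its locus, for the 9 enhancers of the chromosome 4 locus (left) and of the chromosome 8 locus (right), in the 2 unstimulated (black) and 2 CpG 15 h (red) libraries. On the left 5 enhancers rise from near 0, and on the right the libraries with CpG lie below the unstimulated ones at all 8 tested enhancers, including the strongest enhancer at 5.21 RPM.

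The largest log2 rises among loci of at least 2 enhancers came from loci that were almost silent before. The locus chr10:94473972-94475429, 3 enhancers within 1.46 kb, went from 0 and 1 tags to 19 and 11, a log2 change of 4.66 ± 0.89 (SE, adjusted p by edgeR = 8.61e-06). Next came chr8:111955642-111964203 with 1 and 0 tags against 18 and 11 (4.61 ± 0.89, adjusted p = 1.22e-05). Then followed chr13:20968365-20984315 with 1 and 0 against 12 and 14, chr6:86524394-86563293 with 1 and 0 against 14 and 12, and chr5:64970081-65065842 with 2 and 1 against 22 and 21 (adjusted p = 2.10e-05, 1.72e-05 and 1.32e-07). Against 1 tag over both unstimulated libraries, the ratio of the first was 31.7 (95% exact counting interval 5.27 to 1294) and those of the next 3 were 27.5 to 30.7 with lower bounds of 4.52 to 5.08, while that of the fifth, against 3 tags, was 15.2 (4.85 to 76.4). At the chromosome 13 locus none of 7 enhancers was called alone, and all 4 tested ones had more tags with CpG. The call for each of these 5 loci held with every library left out, but at the first 4 their size rests on which unstimulated library holds the single tag. Without unstimulated replicate 1 the log2 change was 3.79 at chr10:94473972-94475429 and 6.72 to 6.88 at the next 3, and without replicate 2 it was 6.94 at the first and 3.69 to 3.85 at the next 3.

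The largest falls included a pair of loci without any enhancer that could be tested singly. At chr12:35086256-35117990 the 6 enhancers held 9 and 13 tags in unstimulated cells and 1 and 0 with CpG, a log2 change of -4.08 ± 0.98 (SE, adjusted p by edgeR = 9.32e-04), a call that was lost without CpG replicate 2 (-3.22, 0.0524), while the log2 change was -6.38 without CpG replicate 1. At chr13:43365809-43425279 the 5 enhancers held 11 and 10 against 0 and 2 (-3.16 ± 1.02, adjusted p = 0.0200), a call lost without unstimulated replicate 1 (0.0983) or 2 (0.0879) or CpG replicate 1 (-2.16, 0.263), with a log2 change of -6.31 without CpG replicate 2. The unstimulated level was 20.8 times that with CpG at the first (95% exact counting interval 3.36 to 859) and 9.93 times at the other (2.43 to 87.4). Firmer falls were those of chr5:33088210-33167454, from 32 and 31 tags to 4 and 1 (-3.51 ± 0.55, adjusted p = 2.53e-08), chr4:135833426-135913073, from 30 and 20 to 2 and 3 (-3.18 ± 0.57, adjusted p = 1.64e-06), and chr4:32358683-32366500, from 11 and 17 to 1 and 1 (-3.58 ± 0.80, adjusted p = 2.69e-04, a ratio of 13.2 with an interval of 3.34 to 115). The calls of these 3 held in each fit with a library left out, with a log2 change of -4.66 without CpG replicate 1 and -2.86 without CpG replicate 2 at chr5:33088210-33167454.

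The response was spread over the genome. Each of the 19 autosomes had both rises and falls, from 4.49% of tested enhancers on chromosome 10 and 4.55% on chromosome 6 to 10.1% on chromosome 5, beside 7.59% over all. On chromosome X 2 of 35 tested enhancers fell and none rose, which is too few to compare. The summed level of chromosome 16 was 50.9 and 50.7 RPM in unstimulated cells and 62.8 and 60.1 with CpG, while that of chromosome 14 went from 50.9 and 48.8 to 40.8 and 41.5 RPM, and these sums carry no test. Rises and falls were of ordinary width, with medians of 378 and 386 bases beside 372 for all tested enhancers. The median distance to the nearest other enhancer was 1.33 kb for rises, 2.19 kb for falls and 1.61 kb for all.

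A second reading of CpG at 15 h came from libraries other than the 4 compared above. Cells given IFN-γ plus CpG were set against cells given IFN-γ alone, at the same hour in culture. These libraries also entered the filter and the shared spread of the fit over all 20 libraries, so that the 2 readings are not fully separate. Of all tested enhancers 256 (9.17%) differed, 144 higher (5.16%) and 112 lower (4.01%) when CpG was added. Unlike the other counts of enhancers, this was not refitted with a library left out, by DESeq2 or with other scaling. Among the 127 rises 53 were called higher, and among the 85 falls 17 were called lower. No rise was called lower and no fall higher. The median log2 difference was 2.1 over the rises and -1.28 over the falls, beside 0.09 over all 2792. Of the rises 119 had a positive difference, as had 1464 of all 2792, and of the falls 63 had a negative one, as had 1313 of all.

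Single enhancers differed in whether they were called again. Among the 10 largest rises 7 were called higher again, the first 2 with log2 differences of 4.10 ± 0.71 for chr19:10822778-10823211 and 7.02 ± 1.24 for chr2:77937049-77937442 (SE, adjusted p by edgeR = 3.5e-06 and 5.2e-06). The second value is set against IFN-γ libraries without a tag, and its size is no bound. Of the 10 largest falls only chr17:35221557-35221747 was called lower again (-3.04 ± 0.92, adjusted p = 0.021). The enhancer chr19:11349540-11350041 went from 0.226 ± 0.00170 RPM with IFN-γ to 7.73 ± 0.125 with both agents (4.64 ± 0.43, adjusted p = 1.6e-23). Others had a positive difference that was not called. At chr3:10353642-10354062 the level was 0.451 ± 0.209 RPM with IFN-γ and 0.806 ± 0.514 with both (0.39 ± 0.62, edgeR adjusted p = 0.72). At chr2:30818921-30819384 it was 2.74 ± 0.564 and 4.60 ± 0.878 (0.32 ± 0.29, adjusted p = 0.49).

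By locus, 382 (20.1%) differed in this reading, 194 higher (10.2%) and 188 lower (9.92%), again in the main fit alone. The chromosome 8 locus chr8:84919232-84964446 was lower with both agents than with IFN-γ, 3.12 ± 0.444 against 6.84 ± 0.374 RPM (log2 difference -1.65 ± 0.21 SE, edgeR adjusted p = 4.4e-12). The chromosome 4 locus chr4:62183758-62206227 was higher, 6.51 ± 1.70 against 1.24 ± 0.469 RPM (1.86 ± 0.27, adjusted p = 2.6e-09). The locus chr17:26716256-26825846, a fall against unstimulated cells, went the other way here, with 5.26 ± 1.49 RPM against 2.45 ± 0.710. That difference was not called (log2 difference 0.58 ± 0.24 SE, edgeR adjusted p = 0.064). At the locus chr12:85393221-85649768, 3.76 ± 0.135 RPM with IFN-γ stood beside 5.30 ± 0.220 with both, a log2 difference of -0.01 ± 0.22 after TMM scaling (adjusted p = 0.97). All tested enhancers together held 786 and 825 RPM with IFN-γ and 1012 and 1267 with both agents, so that an unscaled level in RPM and a scaled difference can part here.

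**Figure D5:**
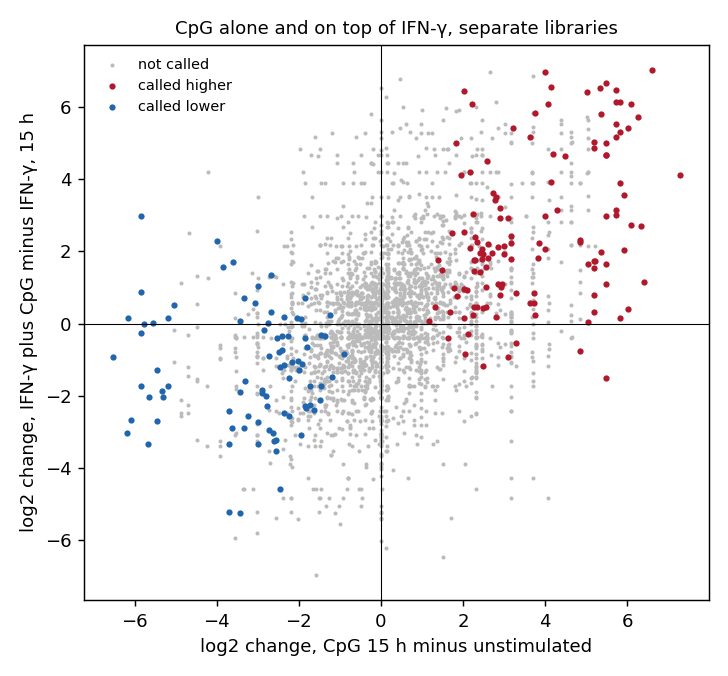
Each point is 1 of the 2792 tested enhancers. The log2 change for CpG at 15 h against unstimulated cells is on the horizontal axis. That for IFN-γ plus CpG against IFN-γ at 15 h is on the vertical axis, from separate libraries that were filtered and fitted together. Rises (red) lie mostly above 0, as 119 of 127 do, and falls (blue) mostly below, as 63 of 85 do.

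CpG at 15 h was also set against IFN-γ alone at 15 h, which holds time in culture equal. In sum the 127 rises stood at 26.7 and 27.2 RPM after IFN-γ, beside 117 and 111 after CpG and 19.3 and 16.5 in unstimulated cells. The sum of the 85 falls was 38.0 and 39.8 RPM after IFN-γ, beside 21.1 and 20.7 after CpG and 103 and 102 in unstimulated cells. The unstimulated and CpG libraries both served to pick these enhancers, and all tested enhancers together also stood lower with IFN-γ (786 and 825 RPM) than in unstimulated cells (985 and 938 RPM), so that these sums are a description. Over all tested enhancers 485 (17.4%) differed between the agents, 209 higher (7.49%) and 276 lower (9.89%) with CpG. Whole-library totals moved the median log2 difference of all tested enhancers from 0.02 to 0.26, and with them 260 were higher and 203 lower. Without CpG replicate 1 or 2, 148 and 179 enhancers were called, and without IFN-γ replicate 1 or 2, 152 and 167. By locus 500 (26.4%) differed, 239 higher (12.6%) and 261 lower (13.8%), in a fit that was not repeated with a library left out. Of the 127 rises 67 were called higher with CpG than with IFN-γ and 119 had a positive log2 difference (median 2.31). Of the 85 falls 20 were called lower and 73 had a negative one (median -1.59). These tallies use the CpG libraries that chose the enhancers, and rises were not tested against falls.

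Rises that set CpG apart from IFN-γ included chr2:77937049-77937442, chr8:111956779-111957113, chr17:18102988-18103257 and chr19:32173751-32173942, which had no tag in either IFN-γ library (edgeR adjusted p = 7.6e-05, 0.0019, 0.0028 and 0.0032). At chr6:146014641-146015042 the order was IFN-γ at 0.113 ± 0.160 RPM, unstimulated cells at 0.991 ± 0.0720 and CpG at 2.48 ± 0.516, so that the agents lay on opposite sides of the unstimulated level (for IFN-γ against unstimulated cells no test was run; CpG against IFN-γ, log2 difference 4.12 ± 0.61 SE, adjusted p = 9.0e-09). With both agents this enhancer stood at 0.527 ± 0.194 RPM. At some falls CpG and IFN-γ could not be told apart. At chr5:34684166-34684741 the level was 2.71 ± 0.405 RPM with IFN-γ and 2.01 ± 0.522 with CpG (-0.66 ± 0.32, adjusted p = 0.14), and with both agents it was 0.683 ± 0.0268. At chr1:128518463-128519014 it was 0.715 ± 0.165 with IFN-γ and 0.771 ± 0.648 with CpG (-0.12 ± 0.51, adjusted p = 0.91), against 3.89 ± 0.598 in unstimulated cells.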

How the data were processed

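The authors deposited raw tag counts per enhancer and library, and a second table that its name calls TPM. Its deposited values are in RPM, since count over value gave 1 whole-library total per column. Per the submitters' processing notes, FastQC 0.11.5, Trimmomatic 0.38, BWA 0.7.10, HISAT2 2.1.0 and build mm39 were used; the enhancer caller is not given in the sources used here. Counts were fitted with edgeR 4.0.16 in R 4.3.3 (quasi-likelihood F-test, robust, two-sided, TMM factors, a coefficient for each of 10 groups over 20 libraries), after filterByExpr (minimum count 5, minimum total 15); tested enhancers held 61.2% to 62.1% of enhancer tags in the 4 libraries, with a median of 3 tags. SE is log2 change over the square root of F. Replicates correlated at r = 0.67 (unstimulated) and 0.58 (CpG 15 h) on log values and differed beyond sampling noise (chi-square divided by its degrees of freedom, 1.19 and 1.22). On simulated data of this comparison with 2792 enhancers, 86.0% of 8-fold, 44.0% of 4-fold and 4.00% of 2-fold rises and 8.00% of 4-fold falls were recovered, and 2.74% of calls were false. These counts were drawn from the model that edgeR fits, with the mean over all libraries as baseline and changes in CpG 15 h alone. The false share thus holds under that model and is no estimate for the real calls. The enhancers named were the 10 largest rises and falls and the 5 of each with the most tags among calls with separate groups and a mean of 5 tags in the higher group; named loci were the 5 largest each way with at least 2 enhancers and a mean of 10 tags. Others are marked as chosen later. Rules and comparisons were chosen with earlier results of these data known. Planned gene lists, markers and motifs were left out, since the only annotation given here has coordinates of GRCm38. Alternatives were RLE factors, whole-library totals, other filters, DESeq2 1.42.0, limma 3.58.1 on log2 of RPM plus 0.5, 0.1 or 2, a replicate block, the compared groups alone, other locus gaps and leaving out each library.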

Additional observations from a re-analysis of the deposited data

Results flagged for a closer look

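These results differ between groups under a direct test (edgeR). Between 15 h and 3 h of CpG 18 enhancers differed, and between CpG and IFN-γ at 15 h 485 did. Among the enhancers named for the comparison with unstimulated cells, 4 differed between CpG at 15 h and 3 h. They were chr19:11349540-11350041 (log2 difference 3.07), chr17:18102988-18103257 (6.10, fitted against no tag at 3 h), chr17:35221557-35221747 (-6.18) and chr1:176655010-176655584 (-5.88), the last 2 without a tag at 15 h.

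Higher with CpG than with IFN-γ at 15 h were chr19:10822778-10823211 (log2 difference 3.95), chr19:11349540-11350041 (4.13), chr6:146014641-146015042 (4.12), chr7:75319181-75319526 (2.099) and chr11:97200213-97200543 (1.81). So were chr2:77937049-77937442 (6.60), chr8:111956779-111957113 (6.26), chr17:18102988-18103257 (6.10) and chr19:32173751-32173942 (6.02), which had no tag with IFN-γ, so that the fitted size is no bound.

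Lower with CpG than with IFN-γ were chr8:84928192-84928495 (-0.94) and, without a tag with CpG, chr7:19053911-19054276 (-4.82), chr17:35221557-35221747 (-6.02), chr1:176655010-176655584 (-5.54) and chr19:10149238-10149451 (-5.22).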

How the results depend on the processing

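Most alternatives that kept all 4 compared libraries left the count of enhancers that differ between CpG at 15 h and unstimulated cells within 1.5 times of 212 (150 to 310). It was 85 with no filter and 46 with DESeq2, where 2003 adjusted p-values were not given, and 46 to 71 with 1 library left out (59 and 79 without unstimulated and 90 and 95 without CpG replicates 1 and 2 on the 2792 enhancers, an alternative added after the data were seen). For loci, 108 were called with DESeq2 and 122 to 151 with 1 library left out (159, 170, 135 and 180 in that order on the 1896 loci), against 288. The share of rises among the enhancers was 59.9%, and 55.4%, 47.7% and 42.7% with limma on RPM plus 0.1, 0.5 and 2. Between CpG at 15 h and 3 h, 11 enhancers were called with whole-library totals, 7 with no filter, 43 with the stricter filter, 1 with DESeq2 (143 under an unadjusted p of 0.05) and 2 to 4 with 1 library left out, against 18. Between CpG and IFN-γ at 15 h, 250 were called with no filter, 275 with the stricter filter, 137 with DESeq2, 322 with the compared groups alone and 148 to 179 with 1 library left out, against 485. Removing the filter adds enhancers to the adjustment, the stricter filter takes them away, and leaving out a library lets 4115 to 4238 enhancers through; for the rest the cause was not tested. The difference in summed enhancer level lay between -80.8 and 2.42 RPM with 1 library left out. The comparison of IFN-γ plus CpG with IFN-γ was not run under the alternatives. Nor were the locus counts for CpG at 15 h against CpG at 3 h and against IFN-γ.

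No named enhancer or locus changed direction in any alternative that gave a value. Of 391 such values for the 30 named enhancers 66 lost the call, and of 107 for the 10 named loci 4 did. With the replicate number as a block 202 enhancers and 280 loci were called, and 18 and 463 in the other 2 comparisons. The block ended the call at chr2:79448585-79448864. Numbers pair the libraries by name only, and deviations of replicate 1 from its group correlated at r = -0.02 between unstimulated and CpG 15 h libraries. With a median of 3 tags, 2-fold changes were mostly beyond reach.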
